A study of Mus musculus with 6 samples.

Results

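The genes described here are 9 adhesion and tissue-residency genes of T cells in mouse glioma: the integrin alpha chains Itga4, Itgae, Itga1 and Itgal, the integrin beta chains Itgb1, Itgb2 and Itgb7, the activation antigen Cd69 and the hyaluronan receptor Cd44. All 9 were found among the 32285 genes of both deposited matrices. They were read in T cell barcodes that carried T cell receptor contigs, at least 5000 gene unique molecular identifiers (UMIs, 1 per captured transcript), at most 10% mitochondrial UMIs and at most 3 UMIs of C1qa, Lyz2 and Csf1r together, which are macrophage genes. Of 12654 barcodes with contigs, 5934 met the rule: 3775 at day 13 and 2159 at day 19.

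The study grew CT2A, a mouse astrocytoma line, in the brains of wild-type C57BL/6J mice aged 6-8 weeks and sorted CD3+ T cells carrying CD4 or CD8 from the tumours for 5' single-cell sequencing of genes, antibody tags and receptors. Day 13 drew on 16 mice, with 4 mice pooled for each replicate, and day 19 on 4 mice. There was 1 capture per day, no mice without tumour and no T cells from another site, so a difference of day cannot be told apart from one of capture or staining, and no p-value is given. Each day has 4 sets of receptor contigs, which are called sets 1 to 4; they were not tied to labelled replicates, and 5 of 69 expanded clonotypes at day 13 and 13 of 47 at day 19 recurred in another set. Within a day, each set had 80.7 to 92.5% of its multiplexing-tag UMIs on 1 tag, and that tag was a different one in each of the 4 sets. Intervals are exact 95% intervals for counting error only, and the spread over sets is given beside them.

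Integrins are receptors made of 1 alpha and 1 beta chain that bind other cells or matrix. Itgae pairs with Itgb7 and binds E-cadherin on epithelium, Itga1 pairs with Itgb1 and binds collagen, Itga4 pairs with Itgb1 to bind VCAM1 or with Itgb7 to bind the gut addressin MAdCAM1, and Itgal pairs with Itgb2 as LFA-1, which binds ICAM1. Cd69 counters the egress receptor S1pr1 and also rises briefly on T cell activation. Cd69, Itgae and Itga1 are widely used to mark T cells that stay in a tissue, the brain included, and circulating T cells instead carry Ccr7, S1pr1 and Klf2.

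T cells were classed by transcript as CD8 (Cd8a or Cd8b1 UMIs without any Cd4 UMI; 2646 cells at day 13 and 1436 at day 19) or CD4 (the reverse; 499 and 377). The remaining cells had UMIs of both (182 and 114) or neither (448 and 232) and enter no class. CD8 T cells with a Pdcd1 UMI, the PD-1 gene (1085 and 724), were divided by Tcf7, a gene of progenitor exhausted cells, and Havcr2, the TIM-3 gene of terminally exhausted cells. This gave 428 and 143 progenitor-like cells with Tcf7 only, 222 and 348 terminal-like cells with Havcr2 only, 393 and 221 with neither and 42 and 12 with both. Among CD4 T cells, 150 and 125 had a UMI of Foxp3, the regulatory T cell factor. Terminal-like cells were deeper, with a median of 12958 UMIs at day 13 against 7714 in progenitor-like cells, and 12155.5 against 11118 at day 19. Levels are UMIs of the gene scaled to a common total of gene UMIs over the summed cells (CPM).

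The labelled cell type matched its markers: the summed level of Cd3d, Cd3e, Cd3g and Trac at day 13 was 3237 CPM in the CD8 and 2587 CPM in the CD4 class, and 3330 and 3105 CPM at day 19, whereas the natural killer cell genes Ncr1 and Klrb1c summed to 2.65 to 34.6 CPM. Other cells' RNA was present in unequal amounts. The 7 dendritic cell genes summed to 7900 CPM in CD4 T cells (sets 5466 to 9049) against 1251 CPM in CD8 T cells (893 to 1686) at day 13, and to 3418 (2274 to 8273) against 498 CPM (360 to 754) at day 19, with none of the 7 at 0. The myeloid limit removed 857 barcodes at day 13 and 1056 at day 19, and 58 barcode sequences occurred in both captures. Gene UMIs of the whole matrices came to 144565182 at day 13 and 81224453 at day 19.

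The members lie on 8 mouse chromosomes of GRCm38: Itga4 on chromosome 2 from 79255426 to 79333114 and Cd44 on chromosome 2 from 102811141 to 102901669, Itgb1 on chromosome 8 from 128685654 to 128733579, Itgae on chromosome 11 from 73090505 to 73147449, Itga1 on chromosome 13 from 114958079 to 115101964, Itgal on chromosome 7 from 127296139 to 127335137, Itgb2 on chromosome 10 from 77530329 to 77565708, Itgb7 on chromosome 15 from 102215994 to 102233405 and Cd69 on chromosome 6 from 129267324 to 129275375.

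At day 19, Itga1 was higher and Itgb7 lower in terminal-like than progenitor-like, Pdcd1-positive than Pdcd1-negative and expanded than single CD8 T cells, whereas at day 13 Itgb7 was within the fold in these comparisons. For this pair of genes, the 250 bases before the annotated start are shown (RefSeq, GRCm38.p6, both on the minus strand, read 5' to 3' along the gene). The Itga1 window is chr13:115101965-115102214. The Itgb7 window, chr15:102231936-102232185, lies inside the annotated span of the gene, so another start lies upstream of it. Capitals mark matches, on either strand, to CACCC (bound by Klf2 and its relatives) or CAGAC (a SMAD half-element).
Itga1: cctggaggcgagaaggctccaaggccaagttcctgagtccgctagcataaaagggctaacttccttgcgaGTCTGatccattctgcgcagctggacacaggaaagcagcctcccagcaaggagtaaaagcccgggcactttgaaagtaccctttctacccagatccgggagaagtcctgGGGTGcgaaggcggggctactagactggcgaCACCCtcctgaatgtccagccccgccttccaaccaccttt
Itgb7: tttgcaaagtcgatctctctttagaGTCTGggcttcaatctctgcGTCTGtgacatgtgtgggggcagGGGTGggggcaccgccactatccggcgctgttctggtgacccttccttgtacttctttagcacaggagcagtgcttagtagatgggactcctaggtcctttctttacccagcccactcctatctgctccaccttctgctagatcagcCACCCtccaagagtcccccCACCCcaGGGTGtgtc

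On both strands, the Itga1 window holds 2 matches to CACCC and 1 to CAGAC, and the Itgb7 window holds 4 and 2. Neither holds TGTGGT, the RUNX core. Among 32851 promoter windows of this length, 52.0% hold CACCC, 42.2% hold CAGAC and 14.05% hold TGTGGT, so these matches are common ones and are given only as a description. Entries were found for 5 of the 9 members.

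CD8 and CD4 T cells differed in the transcripts of some integrin chains. At both days CD8 T cells had more Itga1 and less Itgb1 and Itgb7 than CD4 T cells, and at day 19 also less Itgae and Cd44. A gene was called past the fold when its log2 ratio was at least 0.585 in size (1.5-fold) with 100 UMIs in both sums together. In CD8 against CD4 T cells, 1 member was higher and 2 were lower of 9 tested at day 13, where 21.2% of all tested genes were past the fold, and 1 was higher and 4 lower of 9 at day 19, where 22.9% were. The members' median log2 ratio was -0.15 at day 13 and -0.57 at day 19, beside -0.05 and -0.12 over all genes tested.

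Itga1, the collagen-binding chain, stood at 22.0, 20.9, 18.9 and 24.0 CPM in CD8 T cells of sets 1 to 4 at day 13, against 3.9, 2.2, 6.6 and 8.5 CPM in CD4 T cells. At day 19 the CD8 values were 31.3, 65.2, 37.5 and 31.3 CPM and the CD4 values 8.8, 5.8, 7.0 and 1.4 CPM. No CD4 set reached a CD8 set at either day. The log2 ratio of CD8 over CD4 was 2.03 (1.42 to 2.6965) at day 13 and 3.21 (2.58 to 3.93) at day 19.

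Itgb1, its beta chain, went the other way. CD8 sets held 337.8, 295.9, 251.3 and 347.9 CPM and CD4 sets 666.1, 408.5, 451.2 and 535.2 CPM at day 13, a log2 ratio of -0.74 (-0.81 to -0.67). At day 19 CD8 sets held 178.3, 200.9, 176.2 and 171.3 CPM and CD4 sets 265.1, 342.1, 542.8 and 479.3 CPM, a log2 ratio of -1.10 (-1.19 to -1.01), which was -0.60 with no myeloid limit. CD8 was the lower class in 4 of 4 sets at each day.

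Itgb7, the beta chain shared by the gut-homing and E-cadherin-binding integrins, was lower in CD8 T cells at both days. CD8 sets held 236.2, 256.6, 262.5 and 247.3 CPM at day 13 and CD4 sets 439.7, 430.9, 332.6 and 368.1 CPM, a log2 ratio of -0.61 (-0.69 to -0.53), which was -0.56 without set 1 and -0.55 without set 2 and so under the fold. At day 19 CD8 sets held 177.1, 129.3, 145.5 and 157.4 CPM and CD4 sets 618.7, 376.7, 414.8 and 443.2 CPM, a log2 ratio of -1.49 (-1.59 to -1.40), which was -0.64 with classes taken from antibody tags. Set 1 of day 19 has 12 CD4 T cells.

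Itgae summed to 26.5 CPM in CD8 and 35.3 CPM in CD4 T cells at day 13, and to 13.0 and 24.7 CPM at day 19 (log2 ratio -0.92, -1.28 to -0.55, CD8 lower in 3 of 4 sets). Cd44 was 66.0 against 94.8 CPM at day 13, short of the fold at -0.52, and 72.4 against 120.2 CPM at day 19 (-0.73, CD8 lower in 3 of 4 sets). Itga4, Itgal, Itgb2 and Cd69 were within the fold at both days, between -0.57 and 0.15. Under the processing alternatives the call was lost for Itgb1 at day 13 in 2 of 18 (down to -0.43), Itgb7 at day 13 in 6 of 18 (-0.33), and at day 19 Itgae in 2 of 19 (-0.54) and Cd44 in 1 of 19 (-0.55). Cells with over 10 UMIs of the dendritic genes made up 20.8% of the CD4 class at day 13 (104 of 499) and 11.7% at day 19 (44 of 377), against 3.89% and 2.51% of the CD8 class; without them the day-13 ratios were -1.004 for Itgb1, -0.73 for Itgb7, -0.76 for Cd44, 2.60 for Itga1 and -0.40 for Itgae, while Itga4 (0.02), Itgal (-0.14), Itgb2 (-0.05) and Cd69 (-0.06) changed sign within the fold.

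**Figure D1:**
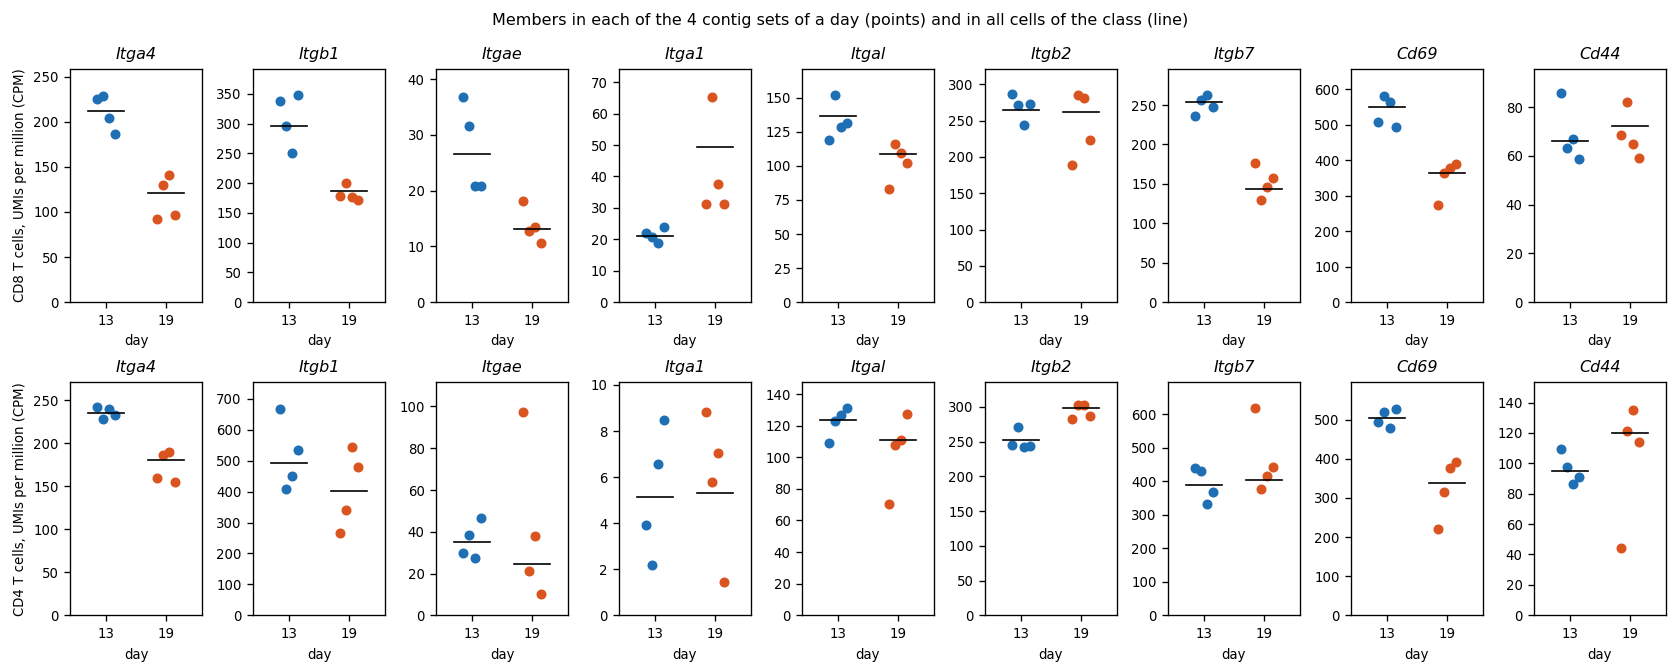
Each panel plots 1 gene in CPM (vertical axis, from 0) at day 13 and day 19, with CD8 T cells above and CD4 T cells below; points are contig sets and the line is the level over all cells of the class. The 4 CD8 sets of day 19 lie below those of day 13 for Itga4, Itgb1, Itgae, Itgal, Itgb7 and Cd69, and above them for Itga1.

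Foxp3-positive CD4 T cells had less Itgb1 than Foxp3-negative ones at both days, more Itgae at day 13 and more Itgb7 at day 19. Itgb7 was short of the fold at day 13, and Itgae had too few UMIs for a call at day 19. Of 8 members tested at day 13, 1 was higher and 2 were lower in Foxp3-positive cells (13.9% of all tested genes were past the fold), and of 7 tested at day 19, 1 was higher and 2 were lower (14.3%). The members' median was -0.38 and -0.42, beside 0.01 and 0.03 over all genes.

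Itgae was 72.5, 81.9, 72.6 and 87.2 CPM in Foxp3-positive cells of the 4 day-13 sets and 7.9, 9.6, 8.3 and 22.0 CPM in Foxp3-negative cells, with no overlap. The log2 ratio was 2.79 (2.23 to 3.39), from 125 and 33 UMIs. At day 19 the pooled levels were 39.2 and 15.3 CPM from 58 and 35 UMIs, under the 100 needed for a call, and the Foxp3-positive sets ran from 0 to 186.4 CPM, the highest from 5 cells.

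Itgb7, its partner, was 463.2 against 348.4 CPM at day 13 (log2 ratio 0.41) and 551.5 against 307.9 CPM at day 19 (0.84, 0.69 to 0.99), higher in 4 of 4 sets each time. After each cell was thinned to 5000 UMIs, 92.0% of CD4 T cells with an Itgae UMI had an Itgb7 UMI at day 13 (46 of 50, 80.8 to 97.8), against 74.4% of those without. At day 19 the shares were 80.0% (20 of 25, 59.3 to 93.2) and 71.9% (66.9 to 76.5), and their intervals overlap. The CD4 class was not split by Foxp3 for these shares.

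Itgb1 was 198.4, 240.2, 256.6 and 295.4 CPM in Foxp3-positive sets and 907.9, 519.1, 534.9 and 679.8 CPM in Foxp3-negative sets at day 13 (log2 ratio -1.32, -1.48 to -1.16), and 173.9 against 550.6 CPM overall at day 19 (-1.66, -1.86 to -1.47). Neither range of sets overlapped the other. Itga4 was 125.2 against 215.7 CPM at day 19 (-0.79) and within the fold at day 13 (-0.38). Itgal was 91.8 against 140.7 CPM at day 13 (-0.62), but -0.46 without set 2 and -0.56 without set 3, and was lost in 10 of 18 alternatives; the Itga4 call at day 19 was lost in 2 of 19 (-0.40) and was -1.30 without set 2. Itgb2 (-0.23 and -0.42), Cd69 (-0.37 and -0.37), Cd44 (-0.54 and -0.30) and Itgal at day 19 (-0.42) were short of the fold, and Itga1 had 4 and 19 UMIs at day 13 and 3 and 17 at day 19.

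Dendritic cell genes moved with this comparison too: they summed to 13176.3 CPM in Foxp3-positive and 5018 CPM in Foxp3-negative cells at day 13, and to 4967 and 2419 CPM at day 19. Over 10 of their UMIs were held by 55 of 150 Foxp3-positive cells (36.7%) and 49 of 349 Foxp3-negative ones (14.04%) at day 13, and by 19.2% and 7.94% at day 19. Without such cells the day-13 log2 ratios were 3.53 for Itgae, -1.12 for Itgb1 and -0.40 for Itgal, which lost its call, while Itga4 (-0.62) and Cd44 (-0.63) were past the fold. Foxp3-positive cells were also the deeper ones, with a median of 8539.5 UMIs against 6509 at day 13 and 9608 against 7481.5 at day 19.

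**Figure D2:**
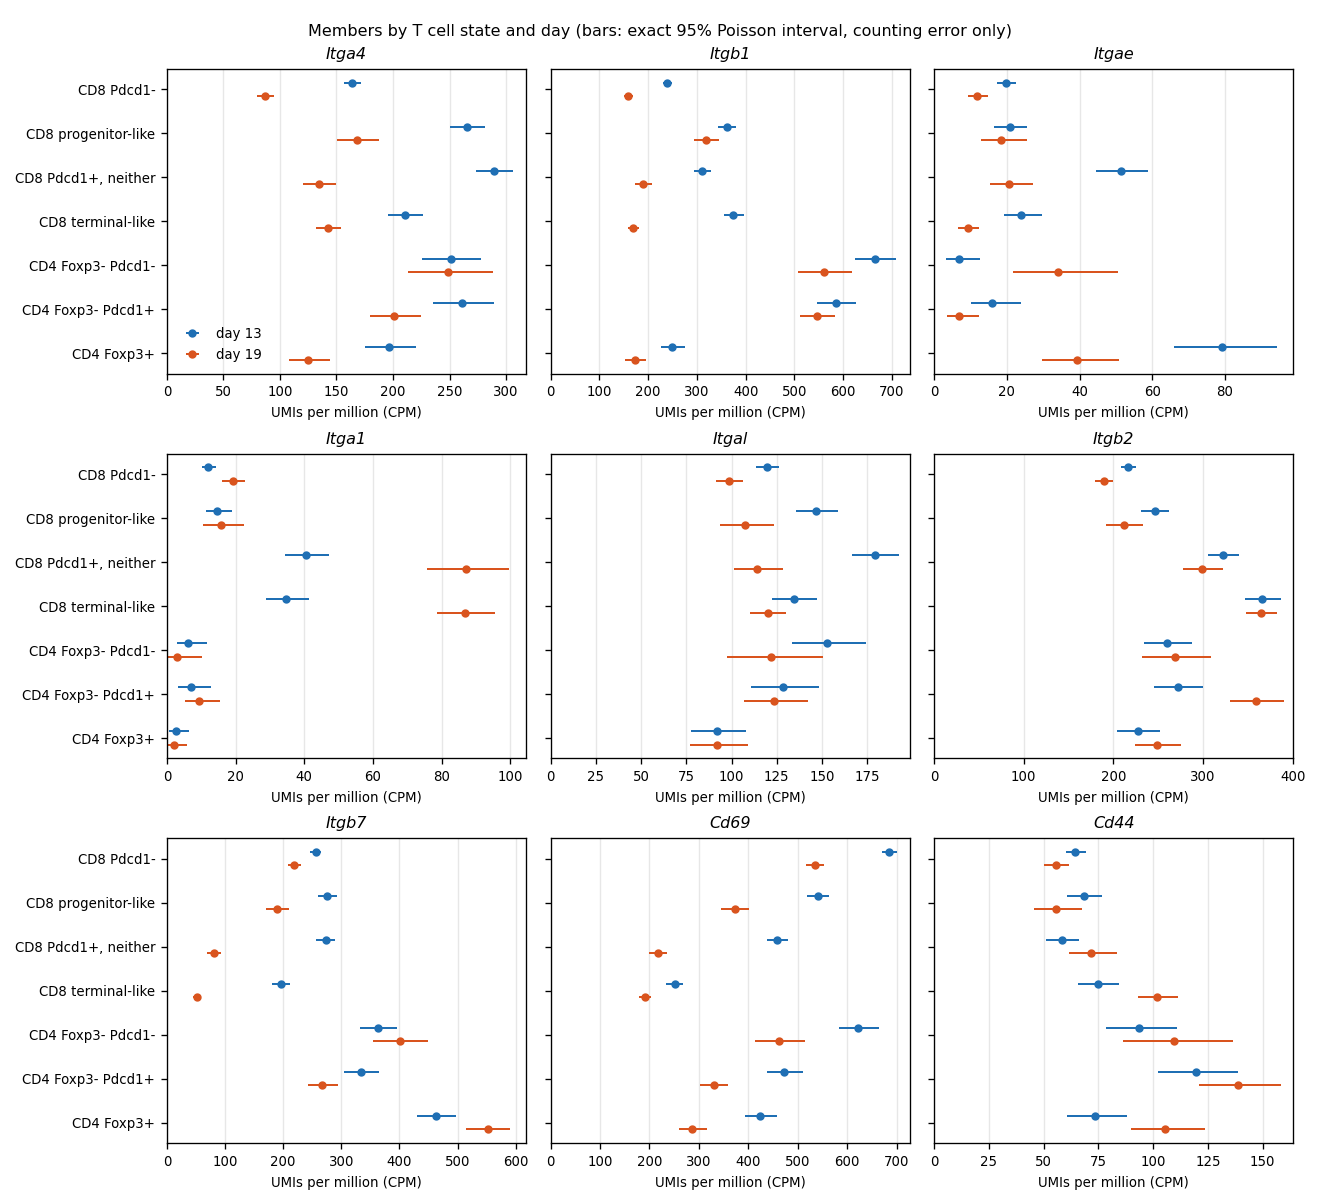
Each panel plots 1 gene in CPM (horizontal axis, from 0) in 7 T cell states at day 13 and day 19, with exact 95% Poisson bars. Itgae is highest in Foxp3-positive CD4 T cells at day 13; at day 19 their interval (39.2 CPM, 29.8 to 50.7) overlaps that of Pdcd1-negative conventional CD4 T cells (34.1 CPM, 21.8 to 50.7). Itga1 is highest in Pdcd1-positive CD8 T cells without Tcf7, and Itgb7 in terminal-like CD8 T cells is 195.9 CPM at day 13 and 51.3 CPM at day 19.

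Terminal-like cells had more Itga1 and less Cd69 than progenitor-like cells at both days; at day 19 they also had more Itgb2 and Cd44 and less Itgb7 and Itgb1. At day 13, 1 member was higher and 1 lower of 9 tested, where 24.1% of all tested genes were past the fold. That share of members is near the background, but the count rose with states taken after thinning and fell with antibody tag classes (closing section). At day 19, 3 were higher and 3 lower of 8 tested, where 18.9% were; the difference between the days was not tested. Member and all-gene medians lay close, at 0.05 and 0.09 at day 13 and -0.04 and -0.05 at day 19.

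Itga1 was 26.8, 37.1, 34.7 and 36.2 CPM in terminal-like sets and 19.1, 9.0, 20.8 and 14.2 CPM in progenitor-like sets at day 13 (log2 ratio 1.24, 0.78 to 1.71). At day 19 it was 78.3, 96.4, 78.7 and 64.0 CPM against 6.5, 19.8, 21.7 and 10.3 CPM (2.46, 1.93 to 3.05). The sets did not overlap at either day. Cells with neither Tcf7 nor Havcr2 resembled the terminal-like cells, with 40.4 CPM (34.4 to 47.1) at day 13 and 87.1 CPM (75.7 to 99.7) at day 19, and those neighbours in the order cannot be separated by their intervals. Pdcd1-negative cells, at 12.1 and 19.2 CPM, lay beside progenitor-like cells, at 14.7 and 15.7 CPM.

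Itgb7 was 233.1, 180.3, 223.8 and 167.8 CPM in terminal-like sets and 234.7, 292.4, 280.1 and 238.0 CPM in progenitor-like sets at day 13 (log2 ratio -0.49). At day 19 it was 67.6, 56.8, 31.7 and 50.1 CPM against 186.7, 199.2, 203.3 and 166.9 CPM (-1.89, -2.13 to -1.65). The lowest progenitor-like set of day 19 thus held more than the highest terminal-like set. Itgb7 ran from Pdcd1-negative (219.4 CPM) through progenitor-like (190.0) and neither (80.5) to terminal-like cells (51.3) at day 19, and no adjacent intervals except those of the first 2 touched.

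Cd69 was 220.8, 316.3, 263.7 and 192.6 CPM in terminal-like sets and 545.9, 570.7, 464.2 and 637.7 CPM in progenitor-like sets at day 13 (log2 ratio -1.11, -1.22 to -0.99), and 190.7 against 372.7 CPM at day 19 (-0.97, lower in 4 of 4 sets). Its highest level was in Pdcd1-negative cells, at 685.6 CPM at day 13 and 534.5 CPM at day 19. Cd69 and Itga1, both used as residency markers, therefore ran in opposite directions across these states.

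Itgb2, the beta chain of LFA-1, was 366.3 against 246.0 CPM at day 13 (log2 ratio 0.57, short of the fold) and 364.8 against 211.6 CPM at day 19 (0.79, higher in 3 of 4 sets), while its partner Itgal was within the fold (-0.13 and 0.16). Itgb1 did not differ past the fold at day 13 (0.05) and was 169.3 against 318.7 CPM at day 19 (-0.91, lower in 4 of 4 sets). Cd44 was 101.7 against 55.6 CPM at day 19 (0.87) and 0.13 in log2 at day 13. Itga4 stayed within the fold at -0.33 and -0.24. Itgae had 44 and 35 UMIs at day 19, too few for a call, and was 0.21 at day 13, when its highest level among these states was in cells with neither gene (51.3 CPM, sets 52.0, 54.3, 67.7 and 16.8).

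The macrophage list summed to 1339 CPM (sets 891 to 1544) in terminal-like cells at day 19 against 301 CPM (270 to 370) in progenitor-like cells, where Adgre1 and Ms4a7 were at 0; the list includes Fcer1g and Tyrobp, and its part in these ratios was not tested.

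Pdcd1-positive against Pdcd1-negative CD8 T cells gave 3 members higher and 1 lower of 9 at day 13 (20.7% of all tested genes past the fold) and 4 higher and 2 lower of 9 at day 19 (20.7%). Itga4 was higher at both days, at 258.0 against 164.1 CPM (log2 ratio 0.65; 0.57 without set 3) and 146.3 against 86.9 CPM (0.75). Itga1 was 29.5 against 12.1 CPM (1.29) and 70.9 against 19.2 CPM (1.88), and Cd69 was lower at 420.7 against 685.6 CPM (-0.70) and 238.4 against 534.5 CPM (-1.16). Itgae was 33.0 against 19.8 CPM at day 13 (0.73), but 0.23 without set 3, and 0.22 at day 19. Itgb7 was alike at day 13 (253.2 and 256.0 CPM) and lower at day 19 (88.3 against 219.4 CPM, -1.31), where Itgb2 (0.73) and Cd44 (0.60; 0.52 without set 2 and 0.56 without set 3) were higher. Short of the fold were Itgb1 (0.55 and 0.39), Itgal (0.35 and 0.24), and at day 13 Itgb2 (0.52) and Cd44 (0.07). Under the alternatives the call was lost at day 13 for Itga4 in 5 of 19, Itgae in 5 of 19 and Cd69 in 4 of 19 (-0.45), and at day 19 for Itga4 in 1 of 19 (0.57), Itgb2 in 1 of 19 (0.58) and Cd44 in 10 of 19 (0.40). The median of all genes was itself 0.13 and 0.12 in this comparison. Scaling by the median of ratios sets this median to 0.00 by design. With ribosomal, mitochondrial and receptor genes left out of the total it was -0.06 and -0.03.

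In conventional CD4 T cells, those without Foxp3, none of 7 members was past the fold at day 13, where 7.2% of all tested genes were, and 1 of 7 was at day 19, where 12% were; whether these ratios differ from those in CD8 T cells was not tested. That member was Itgb7, at 266.8 against 400.3 CPM (log2 ratio -0.59; -0.56, -0.58 and -0.50 without sets 1, 3 and 4, and lost in 9 of 19 alternatives). Cd69 had log2 ratios of -0.40 and -0.49, Cd44 0.35 and 0.34, Itgb2 0.06 and 0.42, Itga4 0.06 and -0.30, Itgal -0.25 and 0.02 and Itgb1 -0.19 and -0.04, short of the fold, and Itgae and Itga1 had under 100 UMIs.

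**Figure D3:**
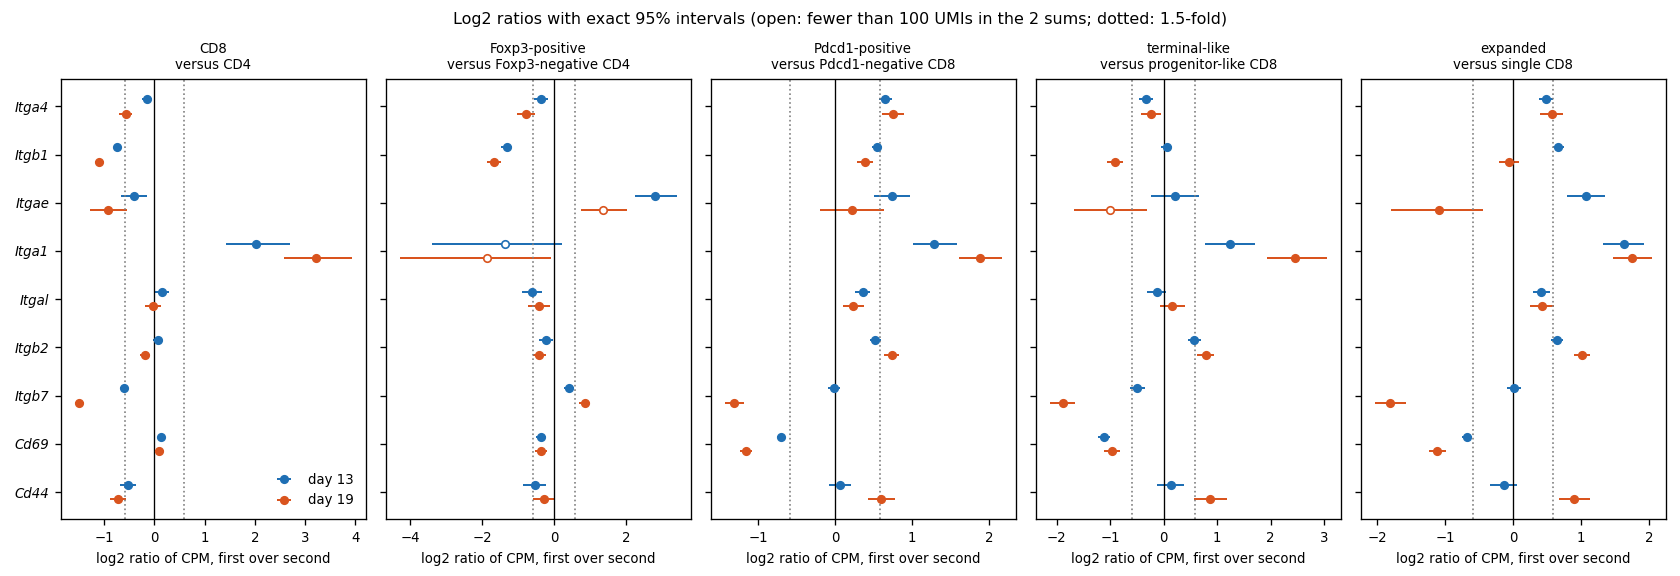
Log2 ratios of CPM (horizontal axis) for the 9 genes in 5 comparisons at day 13 and day 19, with exact 95% intervals; open points have under 100 UMIs in the 2 sums and dotted lines mark 1.5-fold. Itga1 lies right of the dotted line in the 4 comparisons that involve CD8 T cells, and Itgb7 at day 19 lies left of it in the same 4.

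Larger CD8 clonotypes held more Itga1 and Itgb2 and less Cd69 at both days, and less Itgb7 at day 19. Clonotypes were cells of a set sharing 1 TRA and 1 TRB sequence, and expanded ones had at least 3 cells (445 CD8 T cells at day 13 and 251 at day 19, against 1381 and 647 from clonotypes of 1 cell). In expanded against single CD8 T cells, 4 members were higher and 1 lower of 9 at day 13 (18.4% of all tested genes past the fold) and 3 higher and 3 lower of 9 at day 19 (20.5%).

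Itga1 was 14.02, 24.9, 41.7 and 45.3 CPM in clonotypes of 1, 2, 3 to 9 and 10 or more cells at day 13, and 25.1, 75.6, 80.1 and 87.7 CPM at day 19. The log2 ratio of expanded over single cells was 1.63 (1.33 to 1.93) and 1.75 (1.47 to 2.04). Itgb7 did not vary with clone size at day 13 (246.4, 264.8, 234.9 and 265.7 CPM) and was lower in each larger class at day 19 (209.8, 106.8, 80.9 and 45.5 CPM; log2 ratio -1.80, -2.03 to -1.58, and -0.95 with equal weight per clone). Itgb2 was higher in expanded cells at both days (356.6 against 227.8 CPM, 0.65; 386.1 against 190.6 CPM, 1.02) and Cd69 lower (372.8 against 593.0 CPM, -0.67, and -0.55 without set 4; 213.7 against 461.5 CPM, -1.11). Cd44 was -0.14 at day 13 and past the fold at day 19 (98.8 against 52.9 CPM, 0.90). Itga4 (0.49 and 0.57) and Itgal (0.42 and 0.43) were short of it. The day-13 calls were lost for Cd69 in 5 of 20 alternatives (-0.47), with -1.06 without set 2, and for Itgb2 in 4 of 20 (0.43).

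The Itgb1 ratio of day 13 and the Itgae ratio of day 19 rested on few sets or clones. Itgb1 was 407.4 against 257.1 CPM in expanded cells at day 13 (log2 ratio 0.66), but 1.05 without set 2, 0.55 without set 3 and 0.38 without set 4, and -0.05 at day 19. Itgae was 40.0 against 19.0 CPM at day 13 (1.07, higher in 4 of 4 sets; 0.74 to 1.27 without 1 of the sets and 0.27 in cells of at least 8000 UMIs) and 7.9 against 16.9 CPM at day 19 (-1.09), where the value was -4.88 without set 2, -0.55 without set 3 and 0.29 with equal weight per clone. In the 146 cells of day-19 clonotypes of 10 or more cells no Itgae UMI was seen, where 3 UMIs would be 1.69 CPM and the exact 95% upper limit is 2.07 CPM.

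**Figure D4:**
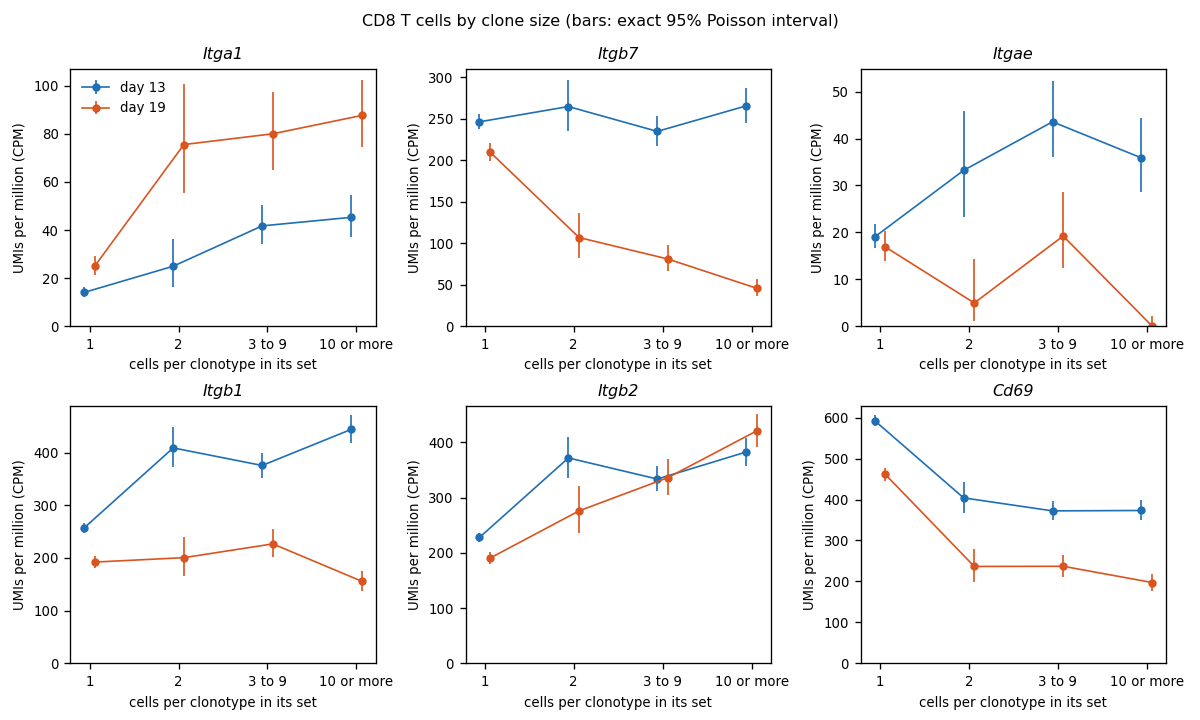
CPM (vertical axis, from 0) of 6 genes in CD8 T cells by the number of cells per clonotype in its set, at day 13 and day 19, with exact 95% Poisson bars. Itga1 is higher in larger clonotypes at both days, and Itgb7 is lower in larger clonotypes at day 19 and level at day 13.

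There were 10 CD8 clonotypes of 10 or more cells at day 13 and 5 at day 19. Itga1 ranged from 6.1 to 83.9 CPM among the first and from 41.5 to 112.9 CPM among the second. Itgb7 ranged from 114.6 to 498.5 CPM and from 11.7 to 63.7 CPM, without overlap at this cut of 10 cells. A smaller day-19 clonotype, of 5 cells, held 326.6 CPM. Clonotypes are not replicates of a day, and the share of all genes without overlap between these clonotypes is not given here. Itgae was 0 in 4 of 10 and in 5 of 5, and its highest level, 268.4 CPM (178.4 to 387.9), was in a day-13 clonotype of 12 cells that also had the highest Itgb7, 498.5 CPM. Among expanded CD8 clonotypes, 64 at day 13 and 29 at day 19, 2 pairs from different days differed by at most 3 bases in each chain's CDR3. The larger pair is shown because it sets near-identical receptors beside each other at the 2 days, in different mice; capitals mark the bases that differ, 2 of 39 in the alpha chain and 1 of 42 in the beta chain.
TRA CDR3, day 13: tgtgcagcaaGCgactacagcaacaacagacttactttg
TRA CDR3, day 19: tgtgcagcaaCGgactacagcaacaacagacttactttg
TRB CDR3, day 13: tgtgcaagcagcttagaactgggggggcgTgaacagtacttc
TRB CDR3, day 19: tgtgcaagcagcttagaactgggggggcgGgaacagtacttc

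The day-13 clonotype (30 cells, set 4) and the day-19 clonotype (38 cells, set 3) differed most in Itgb1, at 669.2 and 129.4 CPM (log2 ratio of day 19 over day 13 -2.37, -2.74 to -2.02). Itgb7 was 148.2 and 35.8 CPM (-2.05), Itga1 39.6 and 81.7 CPM (1.04) and Cd44 39.6 and 95.4 CPM (1.27). Itga4 (170.2 and 175.4 CPM), Itgb2 (410.9 and 432.5 CPM) and Itgal (104.2 and 117.5 CPM) were close, and Itgae was at 0 UMIs in both. The other pair had 12 and 5 cells, with Itga1 at 1 and 6 UMIs and Itgb7 at 350.2 and 326.6 CPM.

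**Figure D5:**
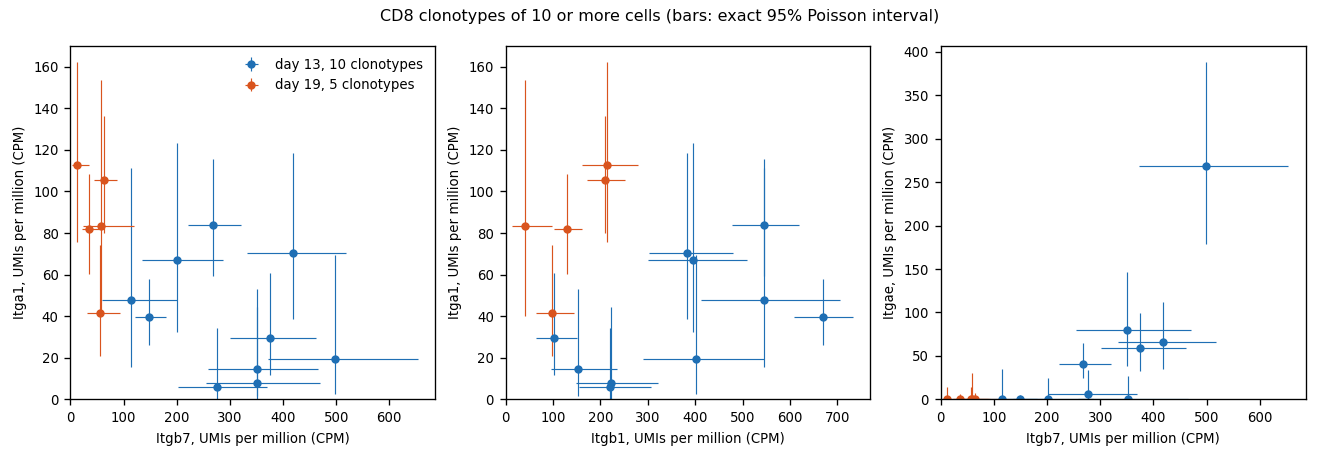
Each point is a CD8 clonotype of 10 or more cells (10 at day 13, 5 at day 19), with exact 95% Poisson bars, plotting Itga1 against Itgb7, Itga1 against Itgb1 and Itgae against Itgb7 in CPM. All 5 day-19 clonotypes lie at 63.7 CPM of Itgb7 or less and at 0 CPM of Itgae.

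Expanded CD4 T cells were few, 12 cells at day 13 and 66 at day 19, and the calls did not hold. Of 7 members tested each day, 1 was lower, where 32.4% and 8.4% of all tested genes were past the fold: Cd44 at day 13 (59.2 against 93.1 CPM, log2 ratio -0.65 from 6 UMIs; -1.53 without set 1, -1.07 without set 3 and 0.38 without set 4) and Cd69 at day 19 (217.9 against 363.3 CPM, -0.74; 0.47 without set 2). The other 6 members tested lay between -0.49 and 0.30 at day 13 and between -0.51 and 0.30 at day 19. A CD4 clonotype of 16 cells in set 2 of day 19 had Itga1 at 56.5 CPM (24.4 to 111.3) and Itgb1 at 861.3 CPM (715.2 to 1028.3), where CD4 T cells of that day held 5.3 and 402.9 CPM. This clonotype was singled out after its values were seen.

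Between the days, CD8 T cells had less of most members and more Itga1. Of 9 members, 1 was higher and 5 were lower at day 19, where 12.6% of all tested genes were past the fold, and 7 of 9 did not overlap between the 4 sets of each day, where 22.5% of all tested genes did not. The members' median was -0.60 beside -0.04 over all genes. Itga4 was 225.6, 228.5, 203.9 and 186.7 CPM in the sets of day 13 and 92.2, 130.3, 140.5 and 96.6 CPM (log2 ratio -0.80, -0.88 to -0.73). Itgb7 was -0.83, Itgb1 -0.66, and Cd69 -0.60 (-0.56 without set 2 of day 13 and -0.56 without set 1 of day 19). Itgae went from 36.8, 31.6, 20.9 and 20.8 CPM to 18.1, 12.8, 13.5 and 10.6 CPM (-1.02, -1.26 to -0.80), and Itga1 was 1.23 (1.07 to 1.40), but 0.69 without set 2 of day 19, its highest set. Itgal (-0.33) and Cd44 (0.13) were short of the fold. Under the alternatives the call was lost for Cd69 in 8 of 22 (-0.47), Itgb1 in 2 of 22 (-0.57) and Itgae in 1 of 22 (-0.54, without cycling cells), and the share of CD8 T cells with an Itgae UMI (6.27% and 4.04%) was not above that of macrophage-like barcodes (6.04% and 7.77%) beyond counting error. Itgb2 was level, at 264.3 and 262.2 CPM.

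The make-up of the CD8 class differed between the captures, so the members were also compared within states. Itgb7 was lower at day 19 chiefly in terminal-like cells (-1.93, -2.15 to -1.72) and cells with neither gene (-1.76), with -0.54 in progenitor-like and -0.22 in Pdcd1-negative cells. Itga1 was higher in terminal-like (1.32) and neither cells (1.11), with 0.67 in Pdcd1-negative and 0.10 (-0.58 to 0.75) in progenitor-like cells. Itga4 was lower in these 4 states (-0.57, -1.10, -0.66 and -0.92 in terminal-like, neither, progenitor-like and Pdcd1-negative cells), and Cd69 was -0.40, -1.08, -0.54 and -0.36; Itga4 in terminal-like cells and Cd69 in all but the cells with neither gene were short of the fold. Itgb1 was -1.15, -0.71, -0.18 and -0.59, and Itgae -1.38, -1.31, -0.17 (-0.79 to 0.41, from 35 and 86 UMIs) and -0.73. Itgae was also -0.17 (-0.51 to 0.16) in cells from clonotypes of 1 cell, against -2.33 in expanded cells, and Itgb1 was -0.42 and -1.14. In the few cells with both Tcf7 and Havcr2 (42 and 12), Itga4 was -0.63, Itgb7 -1.60 and Cd69 0.13 (-0.27 to 0.52), and Itga1 had 19 and 4 UMIs. The differences between states in these ratios were not tested.

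In CD4 T cells no member of 8 was past the fold between days (13% of all tested genes were), and 3 did not overlap between sets, where 11.4% of all tested genes did not: Cd69 (338.1 against 504.3 CPM, -0.58), Itga4 (-0.38) and Itgb2 (0.25). The other 5 lay between -0.52 and 0.34. Foxp3-positive cells gave 2 lower of 8 (16.6% of all tested genes past the fold), Itgae at 39.2 against 79.1 CPM (-1.01; -0.66 without set 4 of day 19, -0.06 with equal weight per set and -0.58 with no myeloid limit) and Itga4 (-0.65; -0.53 without set 4 of day 13, -0.55 without set 4 and -1.14 without set 2 of day 19, -0.40 with no myeloid limit, and lost in 5 of 21 alternatives). The other 6 lay between -0.56 and 0.52. Foxp3-negative cells gave none of 7 (13%), with Cd69 at -0.56 and the others between -0.25 and 0.32. Without the cells of over 10 dendritic UMIs, Itga4 was -0.22 in Foxp3-positive cells, which ends that call, and -0.15 in the CD4 class. Itgae and Itgb1 were then -1.31 and -0.66 in Foxp3-positive cells, Itgae was -0.66 in the CD4 class, and Cd69 was -0.75 in CD4, -0.76 in Foxp3-positive and -0.71 in Foxp3-negative cells.

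Shares of cells with a UMI, after thinning to 5000 UMIs per cell, were set beside macrophage-like barcodes outside the contig sets (2434 at day 13, median 17610.5 UMIs, and 1056 at day 19, median 23222.5 UMIs), which express integrins of their own and so are a reference, not cells known to lack these genes. Among CD8 T cells, 6.27% had an Itgae UMI at day 13 and 4.04% at day 19 (8.99% and 6.62% before thinning), against 6.04% and 7.77% of those barcodes, so over the whole class it cannot be told apart from that reference at day 13 and was under it at day 19 (differences of 0.234 points, Newcombe 95% interval -1.10 to 1.56, and -3.73 points, -5.71 to -1.87). At day 13 the share was 13.0% (9.82 to 16.7) in Pdcd1-positive cells with neither Tcf7 nor Havcr2 and 4.87% (3.85 to 6.06) in Pdcd1-negative cells. In Foxp3-positive cells it was seen in 27.3% (20.4 to 35.2) and 12.8% (7.497 to 19.95), against 2.58% and 3.57% of Foxp3-negative cells. Itga1 UMIs were in 7.71% and 17.5% of the CD8 class (12.2% and 30.1% before thinning), 18.0% and 33.9% of terminal-like cells, 2.204% and 3.18% of the CD4 class (3.21% and 4.24% before thinning) and 3.57% and 6.82% of the macrophage-like barcodes. For Itga1, the CD4 share minus that of the reference was -1.37 percentage points at day 13 (Newcombe 95% interval -2.64 to 0.456, counting error only), which does not separate them, and -3.64 points at day 19 (-5.79 to -0.961), under the reference.

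Partner chains were compared within cells, in CD8 T cells after thinning, and so were pairs of genes whose products do not pair. Of cells with an Itgae UMI, 75.3% (68.0 to 81.7) had an Itgb7 UMI, against 61.3% of those without; for Itga1 and Itgb1 the shares were 71.1% and 51.7%, for Itga4 and Itgb1 59.7% and 46.1%, and for Itgal and Itgb2 70.2% and 60.4%. For Itga4 and Itgb7 they were 61.6% and 62.8%, and for Itgae and Itga1, which do not pair, 16.3% and 7.14%; Cd69 was found in 82.5% and 83.0% of cells with and without Itgae and in 80.4% and 83.2% for Itga1. At day 19 the shares were 62.1% and 43.6% for Itgae with Itgb7, 49.2% and 45.0% for Itga1 with Itgb1, 51.3% and 42.5% for Itga4 with Itgb1, 65.7% and 61.6% for Itgal with Itgb2, 42.5% and 45.5% for Itga4 with Itgb7 and 25.9% and 17.2% for Itgae with Itga1. For Cd69 they were then 81.0% and 69.8% with Itgae and 61.5% and 72.1% with Itga1. At day 19 the intervals of both shares were apart for Itgae with Itgb7, Itga4 with Itgb1 and Itga1 with Cd69. They overlapped for the other pairs.

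The lists of related genes give the setting. Of 23 residency-associated genes, terminal-like against progenitor-like CD8 T cells had 5 higher and 5 lower of 20 tested at day 13, and 12 higher and 3 lower of 20 at day 19, where 24.1% and 18.9% of all tested genes were past the fold. The list's median log2 ratio was 0.25 and 0.96, beside 0.09 and -0.05 over all genes. Those higher at day 19 included Cxcr6, a chemokine receptor (329 against 60.9 CPM), Zfp683, which encodes Hobit (45.6 against 10.5 CPM), and Rgs1 (734 against 323 CPM), and those lower were Xcl1, Cxcr3 and Ahr. Of 13 circulation genes, 1 was higher and 10 lower of 11 at day 13, and 7 were lower of 10 at day 19, among them Klf2 (45.2 against 353 CPM) and Ccr7 (13.8 against 370 CPM); Tcf7 is on this list and was fixed by the split. That list's median was -2.06 and -3.31.

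Of 19 other integrin chains, few had enough UMIs. In CD8 against CD4 T cells 4 of 5 tested were lower at each day (medians -1.10 and -1.67), beside 21.2% and 22.9% of all tested genes past the fold. The dendritic genes were lower in CD8 T cells too. Without the cells of over 10 of their UMIs, 3 of 4 chains tested were lower and 1 higher at day 13 and 4 of 4 lower at day 19 (18.0% and 22.1% of all tested genes). With no myeloid UMI allowed in a cell, 2 of 4 were lower at day 13 (median -0.79, 19.9% of all tested genes) and 3 of 3 at day 19 (-0.96, 22.3%). Between terminal-like and progenitor-like cells, 1 was higher and 1 lower of 4 tested at day 13 (24.1% of all tested genes past the fold), and the 1 tested at day 19 was higher (18.9%). That chain was Itgav, which pairs with Itgb8 to activate TGF-beta, at 132 against 48.8 CPM. In CD4 T cells, 2 were higher and 1 lower of 4 tested in Foxp3-positive cells at day 13 (13.9% of all tested genes past the fold). At day 19, 2 of 3 were higher (14.3%), Itgav among them (244 against 110 CPM). Cells with over 10 dendritic UMIs made up 36.7% of Foxp3-positive and 14.04% of Foxp3-negative cells at day 13. At day 19 they made up 19.2% and 7.94%. Their part in these counts was not tested. Itgb8 was 1.12 CPM in CD8 and 30.8 CPM in CD4 T cells at day 19. Of 30 genes of integrin activation and linkage, 4 were higher and 4 lower of 24 tested between terminal-like and progenitor-like cells at day 19 (18.9% of all tested genes; list median 0.12), the lower ones including Rasgrp2, a Rap1 activator (16.3 against 59.8 CPM), and Apbb1ip, which encodes the talin recruiter RIAM (96.7 against 179 CPM). Of 14 TGF-beta pathway genes, 8 of 13 tested were lower in CD8 than in CD4 T cells at day 19 and none was higher (22.9% of all tested genes past the fold; list median -0.70, all genes -0.12), Tgfb1 among them (168 against 277 CPM); without the cells of over 10 dendritic UMIs, 7 of 13 were lower (list median -0.60). Of 16 ligands and partners, 3 of 7 were higher in terminal-like cells at day 19, beside the same 18.9%, with a list median of 0.24: Cdh1, Spp1 and Vim. Spp1, which macrophages also express, was 79.3 against 4.72 CPM, and the macrophage list moved the same way in this comparison (1339 against 301 CPM). With no UMI of C1qa, Lyz2 or Csf1r allowed in a cell, the Spp1 log2 ratio was 5.40 beside 4.07 in all cells. It was 3.86 without cells of over 10 dendritic UMIs. These ratios rest on a low level in progenitor-like cells. With no myeloid UMI, 2 of 6 tested genes were higher (18.2% of all tested genes past the fold), and Cdh1 (1.30) had too few UMIs to be tested. The part of macrophage RNA in the Spp1 ratio was not tested.

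Over 16 strata of state and day, which share captures and cells, the genes most like each member by Pearson's r of log2(CPM + 10) were Sult2b1 and Dapk2 for Itga1 (0.94 and 0.94), Arhgap4 and Cmtm6 for Itgb7 (0.92 and 0.91), Lztfl1 and Acsbg1 for Itgae (0.88 and 0.87), Klf2 and Thada for Cd69 (0.95 and 0.95), Erp44 and Tmsb4x for Itgb2 (0.93 and 0.92), Tlk1 and Phf20l1 for Itgb1 (0.90 and 0.88), Atp2a3 and Supt4a for Itga4 (0.88 and 0.87), Sh2d3c and Rnf14 for Itgal (0.89 and 0.87) and Rabgap1l and Man2c1 for Cd44 (0.92 and 0.87). Among members, Itga1 and Itgb7 had r of -0.84 and Itga4 and Itgb1 0.80.

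The antibody tags gave little to set beside the transcripts. At day 13, CD44 tags were 17.8 per 10000 tag UMIs in the CD8 class and 25.0 in the CD4 class, and at day 19 they were 24.0 and 36.8, the same order as the Cd44 transcript. CD103, the Itgae protein, was 50.4 and 53.1 in CD8, 50.7 and 53.3 in CD4 and 50.1 and 51.8 in Foxp3-positive cells. CD49a, CD11a and CD69 differed as little between the classes (CD49a was 123.8 for CD8 and 121.7 for CD4 cells at day 13), and an isotype control, IgG1, stood at 26.0 and 25.5 in CD8 T cells. The CD4 tag itself was 7.1 in CD8 and 10.4 in CD4 T cells at day 13, so the tags separated the classes weakly.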

How the data were processed

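Genes, antibody tags and T cell receptors were measured in sorted T cells of 1 capture per day. The authors deposited raw UMI counts per barcode and contig tables; Cell Ranger 4.0.0, STAR 2.7.5c, bcl2fastq 2.20, Seurat, R 4.1.2 and mm10 are named per the submitters' processing notes, without roles. No aligned reads were used here. Counts were summed per stratum and scaled to CPM (python 3.11.15, scipy 1.17.1). Log2 ratios have exact conditional 95% intervals and levels exact Poisson intervals; both cover counting error only. No test was run: the days are 1 capture each, and the contig sets are not labelled replicates and share clonotypes, so within a day the number of sets in each direction is given, and a ratio blocked by set is in the closing section. A gene was called at 1.5-fold with 100 UMIs in both sums. Sets needed 5 cells. Doublets were not called; cells with both coreceptors and myeloid barcodes were set aside. The rule named all 9 members in every comparison, those short of the fold by value or range, with fixed lists of related genes. The members and lists were chosen with earlier results of these data known. In simulated data with 200 of 10052 genes changed 2-fold, 197 passed the fold with the right sign and 95.2% of intervals held the true ratio. The simulated counts had counting error only, as the intervals assume. They therefore cannot show how the intervals cover spread over cells, clones or sets. Alternatives are given in the closing section. Values of 1 gene on the circulation list are not reported here.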

Additional observations from a re-analysis of the deposited data

Results flagged for a closer look

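Itgb2 in CD4 T cells at day 13 was 271 CPM in set 2, apart from 246, 242 and 244 CPM in the others. It was the 1 group with a set apart among 36 groups of 4 sets examined, and chance sets apart about 1 in 20 such groups.

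The log2 ratio of Itgb2 in CD8 over CD4 T cells changed sign between the days, by -0.256: CD8 was higher in all 4 sets at day 13 and lower in all 4 at day 19. Without cells of over 10 dendritic UMIs, which made up 20.8% of the CD4 class at day 13, the log2 ratio was -0.05 at day 13 and -0.25 at day 19, so the change of sign was lost. The difference was not tested.

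Itgal at day 13 was higher in Pdcd1-positive than Pdcd1-negative CD8 T cells in every set and lower in conventional CD4 T cells in every set, a difference in log2 ratio of 0.604. It was not tested.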

How the results depend on the processing

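With the contig set as a replicate block (a Mantel-Haenszel ratio over the sets, chosen after seeing the data), classes of 1 day were compared in pairs within a set, with no test. Of 46 called ratios within a day, 2 went under the fold: Cd44 for Pdcd1 in CD8 (0.57) and Itgb7 for Pdcd1 in conventional CD4 (-0.55), both at day 19. The count of members past the fold became 0 for the latter and 2 for expanded CD4 at day 13, where Itgb1 was -0.73.

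Of 2840 ratios recomputed under an alternative, 2348 lay within the interval of the reported ratio and 160 had the opposite sign, of which 4 were of a called ratio: Cd44 in expanded CD4 T cells at day 13 (0.0024 with no myeloid UMI allowed, 0.3843 without set 4), Itgae in expanded CD8 T cells at day 19 (0.2909 with equal weight per clone) and Cd69 in expanded CD4 T cells at day 19 (0.4737 without set 2). With each set left out in turn these 2 CD4 ratios ran from -1.5324 (Cd44, without set 1) to 0.3843 and from -0.9604 (Cd69, without set 3) to 0.4737. Of 54 called ratios, 29 never fell under the fold; these include every Itga1 call.

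Counts of members past the fold moved by over 1.5 times as follows, and the cause was not tested. Except for the minimum of 20 UMIs, the share of all genes past the fold is not given beside them. These counts therefore describe the members only and cannot be set against a background. With median of ratios scaling they were 3 for expanded CD8 at day 13 and 1 for the day comparison in CD4; without ribosomal, mitochondrial and receptor genes, 2 for Pdcd1 in CD8 and 3 for expanded CD8 at day 13. With a minimum of 20 UMIs, where more genes are tested, they were 5 for Foxp3 at day 19 (23.6% of all tested genes past the fold). For Pdcd1 in conventional CD4 they were 1 and 2 at days 13 and 19 (17.7% and 23.8%), and for expanded CD4 2 and 2 (46.8% and 20.2%). With at least 8000 UMIs per cell, which keeps fewer cells, they were 1 and 3 for CD8 against CD4, and at day 13 1 for Foxp3, 1 for Pdcd1 in CD8 and 1 for expanded CD8, with 1 for the day comparison in CD4. With no myeloid UMI allowed they were 2 for conventional CD4 at day 19, 3 for expanded CD4 at day 13 and 1 for day in CD4; with no myeloid limit, 1 for CD8 against CD4 at day 13, 2 for conventional CD4 at day 19, 3 and 2 for expanded CD4, and 1 for day in CD4 and in Foxp3-negative cells. Antibody tag classes gave 1 for terminal-like against progenitor-like at day 13 and 0 for conventional and expanded CD4 at day 19; states after thinning gave 4 for terminal-like at day 13, 2 for Pdcd1 in CD8 at day 13, 0 for conventional CD4 at day 19 and 5 for day in Foxp3-positive cells. Cells with 1 TRA and 1 TRB gave 2 for day in CD4. Without the 8% deepest cells they were 3 for expanded CD4 at day 19, and 1, 5 and 1 for day in CD4, Foxp3-positive and Foxp3-negative cells; without cycling cells, 3 and 3 for expanded CD4 and 1 for day in Foxp3-negative cells. Equal weight per set gave 0 for conventional CD4 at day 19 and 1 for day in CD4, and equal weight per clone 2 for expanded CD4 at day 19. Of the alternatives chosen after seeing the data, leaving out the largest clone gave 0 for conventional CD4 and 2 for expanded CD4 at day 19, and leaving out cells with over 10 dendritic UMIs gave 2 for expanded CD4 at day 13, 2 for day in CD4 and 1 for day in Foxp3-negative cells.

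Without 1 of the contig sets at a time, the counts were 2 to 3 at day 13 and 5 to 6 at day 19 for CD8 against CD4, 2 to 4 and 3 to 4 for Foxp3, 2 to 3 and 6 to 6 for terminal-like against progenitor-like, 2 to 5 and 5 to 6 for Pdcd1 in CD8, 0 to 0 and 0 to 1 for conventional CD4, 3 to 5 and 6 to 7 for expanded CD8, 1 to 3 and 1 to 2 for expanded CD4, and for day 5 to 6 in CD8, 0 to 2 in CD4, 2 to 4 in Foxp3-positive and 0 to 1 in Foxp3-negative cells. The share of all genes past the fold without a set is not given beside these counts. Depth limits Itgae and Itga1, which had under 100 UMIs in some comparisons within CD4 T cells. Itgae was also under 100 UMIs between terminal-like and progenitor-like CD8 T cells at day 19 (44 and 35).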

Other observations

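CD8 T cells were also divided by whether they held an integrin UMI, a description that uses single UMIs and so depends on depth. At day 19, the 252 CD8 T cells with an Itga1 UMI had less of the lymph node homing receptor Ccr7 than the 1184 without (21.8 against 286 CPM) and less Klf2 (133 against 535 CPM), and more Cxcr6 (290 against 149 CPM). At day 13, the 166 CD8 T cells with an Itgae UMI had 31.3 CPM of Foxp3 against 6.9 CPM in the 2480 without, more Zfp683 (23.8 against 7.8 CPM) and less Eomes (15.6 against 54.0 CPM). The share of CD8 T cells with an Itgae UMI was close to that of macrophage-like barcodes, so how many of these cells hold Itgae RNA of their own was not tested.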
